A study of Mus musculus with 2 samples.

Results

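The mitochondrial ribosomal protein genes were taken as all protein-coding genes of GENCODE M21 whose symbol is Mrpl or Mrps followed by a digit, and 77 of the 78 such symbols were matched in the gene tables (Mrpl33 was not analysed here). They are 48 Mrpl genes, named for the large subunit, and 29 Mrps genes, named for the small one, out of 21474 protein-coding genes and 69691 entries in each gene table. They were measured by total RNA-seq in the forebrains of 2 newborn mice of strain B6NCrl (postnatal day 0), pup 1 and pup 3, with 1 forebrain in each library and 10 ng of RNA longer than 200 nt. Both pups form a single group with no treatment, no second tissue and no recorded sex, and the labels give both the same donor identifier. The labels do not say whether the pups shared a litter. The deposited expected counts came to 40066386 for the library of pup 1 and 40431595 for that of pup 3. With 1 group of 2 animals no test between conditions was possible, so each value is read against the gap between the pups, which may be biological or technical.

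Mitochondria carry their own ribosome, which translates the few proteins encoded in mitochondrial DNA, all of them subunits of the oxidative phosphorylation complexes. Its ribosomal RNAs come from the mitochondrial genome, whereas every one of its proteins is encoded in the nucleus, made in the cytosol and imported. Some of these proteins descend from bacterial ribosomal proteins, and others are found only in mitochondria. In neurons the organelle supplies most of the ATP for ion pumping and synaptic activity, and inherited defects of mitochondrial translation often affect the brain.

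The labelled tissue was checked first. All 10 forebrain markers, among them Tbr1, a factor of early-born cortical neurons (23.2 TPM in pup 1 and 24.0 TPM in pup 3), reached 1 TPM in both pups. TPM is the deposited abundance of a gene relative to all others in its library, corrected for length. Of 8 genes of hindbrain, muscle and liver, only Myh7 did so (2.04 and 1.59 TPM), and Hoxa2, Hoxb2 and Hoxb4 were listed at 0 in both. The pups were not alike in every marker: Neurod6, a factor of cortical excitatory neurons, had 206 TPM in pup 1 and 329 TPM in pup 3, and Emx2 had 9.76 and 3.94 TPM.

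Promoter windows from RefSeq on GRCm38.p6, from 250 bases before to 50 after the start of transcription, were matched by symbol for 68 of the 77 genes and gave 74 windows. They were searched on both strands for letters bound by factors known for nuclear genes of mitochondria. These were GCGCA and GCGC parted by any 1 base for NRF1, CCGGAAG for the ETS factor GABP and AAGATGGC for YY1, and GGGCGG (SP1), TATAAA and CCAAT served for comparison. The end of the ETS letters can overlap the beginning of the YY1 letters, and that joint run occurred in 0 member windows. The following windows are given by the 250 bases before the start and were chosen among the 16 that no other annotated gene enters. Capitals mark NRF1 letters in Mrpl45 and ETS letters in Mrpl52 and Mrpl58. Mrpl20 and Mrps31 are the highest and the lowest gene with such a window, and neither holds any of the first 3 motifs before its start.
Mrpl45, chr11:97315466-97315715, plus strand: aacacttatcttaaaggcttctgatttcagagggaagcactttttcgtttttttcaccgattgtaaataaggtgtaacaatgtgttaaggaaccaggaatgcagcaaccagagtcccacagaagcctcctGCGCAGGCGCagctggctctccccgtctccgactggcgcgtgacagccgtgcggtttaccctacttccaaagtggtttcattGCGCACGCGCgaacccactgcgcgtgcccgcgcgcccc
Mrpl52, chr14:54426659-54426908, plus strand: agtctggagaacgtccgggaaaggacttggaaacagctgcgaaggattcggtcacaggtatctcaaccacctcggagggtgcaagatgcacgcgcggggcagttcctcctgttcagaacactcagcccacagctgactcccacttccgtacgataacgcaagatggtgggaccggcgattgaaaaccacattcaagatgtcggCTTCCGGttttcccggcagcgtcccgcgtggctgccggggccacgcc
Mrpl58, chr11:115403502-115403751, plus strand: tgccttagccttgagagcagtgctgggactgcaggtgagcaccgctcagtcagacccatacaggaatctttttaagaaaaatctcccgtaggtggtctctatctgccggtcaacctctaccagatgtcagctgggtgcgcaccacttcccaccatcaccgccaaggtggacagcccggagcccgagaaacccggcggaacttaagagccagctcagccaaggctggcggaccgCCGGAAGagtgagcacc
Mrps31, chr8:22411090-22411339, plus strand: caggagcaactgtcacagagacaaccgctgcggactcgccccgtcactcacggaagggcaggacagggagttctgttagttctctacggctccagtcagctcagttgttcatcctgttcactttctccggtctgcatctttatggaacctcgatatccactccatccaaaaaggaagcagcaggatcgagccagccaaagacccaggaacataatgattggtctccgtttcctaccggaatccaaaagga
Mrpl20, chr4:155802628-155802877, plus strand: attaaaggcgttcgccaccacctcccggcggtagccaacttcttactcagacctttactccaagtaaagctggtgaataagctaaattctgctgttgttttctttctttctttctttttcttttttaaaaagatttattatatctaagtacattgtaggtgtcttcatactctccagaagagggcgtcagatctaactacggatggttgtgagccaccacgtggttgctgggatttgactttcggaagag

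In Mrpl45, which tethers the particle to the inner membrane, the NRF1 letters begin 120 and 38 bases before the start. The ETS letters begin 47 bases before the start of Mrpl52 and 17 before that of Mrpl58. Over all windows, the ETS letters were in 25 of 74 member promoters (33.8%), against 11.6% of 21262 protein-coding promoters. The NRF1 letters were in 13 (17.6%), against 6.38%, and the YY1 letters in 12 (16.2%), against 3.05%. One or more of these 3 stood in 42 windows (56.8%), against 18.9%, and 8 windows held 2 or more (10.8%, against 2.04%), among them those of Mrps21, Mrpl17, Mrps26 and Mrps12. None held all 3. With only the bases before the start, the YY1 letters were in 4 member windows (5.41%), against 318 of the 21262 protein-coding ones, so in most of the 12 the letters reached past the start.

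The comparison letters differed less. The SP1 letters were in 39 windows (52.7%), against 46.2%, CCAAT in 29 (39.2%), against 38.2%, and TATAAA in 5 (6.76%), against 12.6%. Member windows had a median GC content of 58.8% and 21.5 CpG dinucleotides, against 56.3% and 13 in protein-coding windows, and the NRF1 and ETS letters contain CpG. The part of base composition in the motif shares was not tested. Genes whose window held the ETS letters had a median of 98.2 TPM (25 genes), against 63.9 TPM in those without (43 genes). For NRF1 the medians were 92.8 TPM (13 genes) and 83.4 TPM (55 genes), and for YY1 66.5 TPM (12 genes) and 85.7 TPM (56 genes), with no test made of these differences. A match is a description of letters and not of binding.

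**Figure D1:**
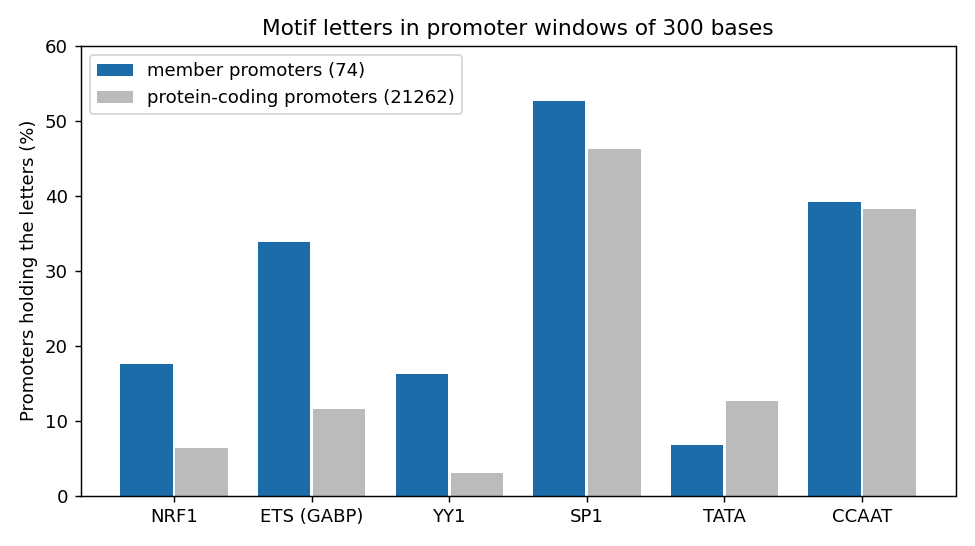
Share of promoter windows (percent, y axis) that hold each motif's letters on either strand, for member promoters (blue) and all protein-coding promoters (grey). ETS letters stand in 33.8% of member windows, against 11.6%, and the SP1 and CCAAT bars lie closer together.

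All 77 genes were detected at 1 TPM or more in both pups, a level that 60.7% of all protein-coding genes reached. At 10 TPM or more in both pups there were 76 of 77 (36.3% of protein-coding genes), the exception being Mrpl1, and at 100 TPM or more there were 29 (7.25%). Their median was 84.7 TPM in pup 1 and 79.2 TPM in pup 3, and the median of the means, 83.4 TPM, stood at percentile 84.6 among protein-coding genes detected in both pups. Together they took 0.721% of all TPM in pup 1 and 0.762% in pup 3.

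The highest was Mrpl20 (ENSMUSG00000029066, chromosome 4, 155802878 to 155809975, plus strand, build mm10), the homologue of a bacterial protein that acts early in assembly of the large subunit, with 265 TPM in pup 1 and 330 TPM in pup 3. Mrpl30 followed with 252 and 298 TPM, within the spread of Mrpl20 between the pups. Next came Mrps21, the homologue of bacterial S21, with 221 and 248 TPM. Mrpl52 had 213 and 243 TPM and Mrpl42 206 and 236 TPM, and both are proteins of the mitochondrial large subunit without a bacterial counterpart. The order of these 5 was the same in both pups, but the ranges of Mrps21, Mrpl52 and Mrpl42 overlapped, so their differences lay within the spread between the pups.

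Mrps24, whose bacterial homologue lines the entry of the messenger, had 195 TPM in pup 1 and 235 TPM in pup 3. Mrps33, specific to mitochondria, had 159 and 212 TPM, and Mrps18c 160 and 197 TPM. Mrpl58 had 176 and 168 TPM. It is a peptidyl-tRNA hydrolase that became part of the large subunit. Mrpl17, at the exit of the peptide tunnel, completed the 10 highest with 162 and 160 TPM.

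At the low end, Mrpl1 (ENSMUSG00000029486, chromosome 5, 96209493 to 96266727, plus strand) had 10.1 TPM in pup 1 and 9.01 TPM in pup 3. In bacteria its homologue forms the stalk through which used tRNA leaves. Mrpl35 had 19.2 and 18.3 TPM. Mrpl1 lay below Mrpl35, and Mrpl35 below every other member, by more than the gap between the pups. Mrps31 (26.2 and 27.6 TPM), Mrpl47 (26.1 and 28.3), Mrps9 (29.6 and 27.4), Mrpl44 (28.9 and 29.0), Mrpl19 (34.6 and 24.8) and Mrpl39 (30.0 and 29.5 TPM) followed, and the range of Mrpl19 between the pups held the values of the other 5. From lowest to highest the mean TPM spanned 31.1-fold.

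**Figure D2:**
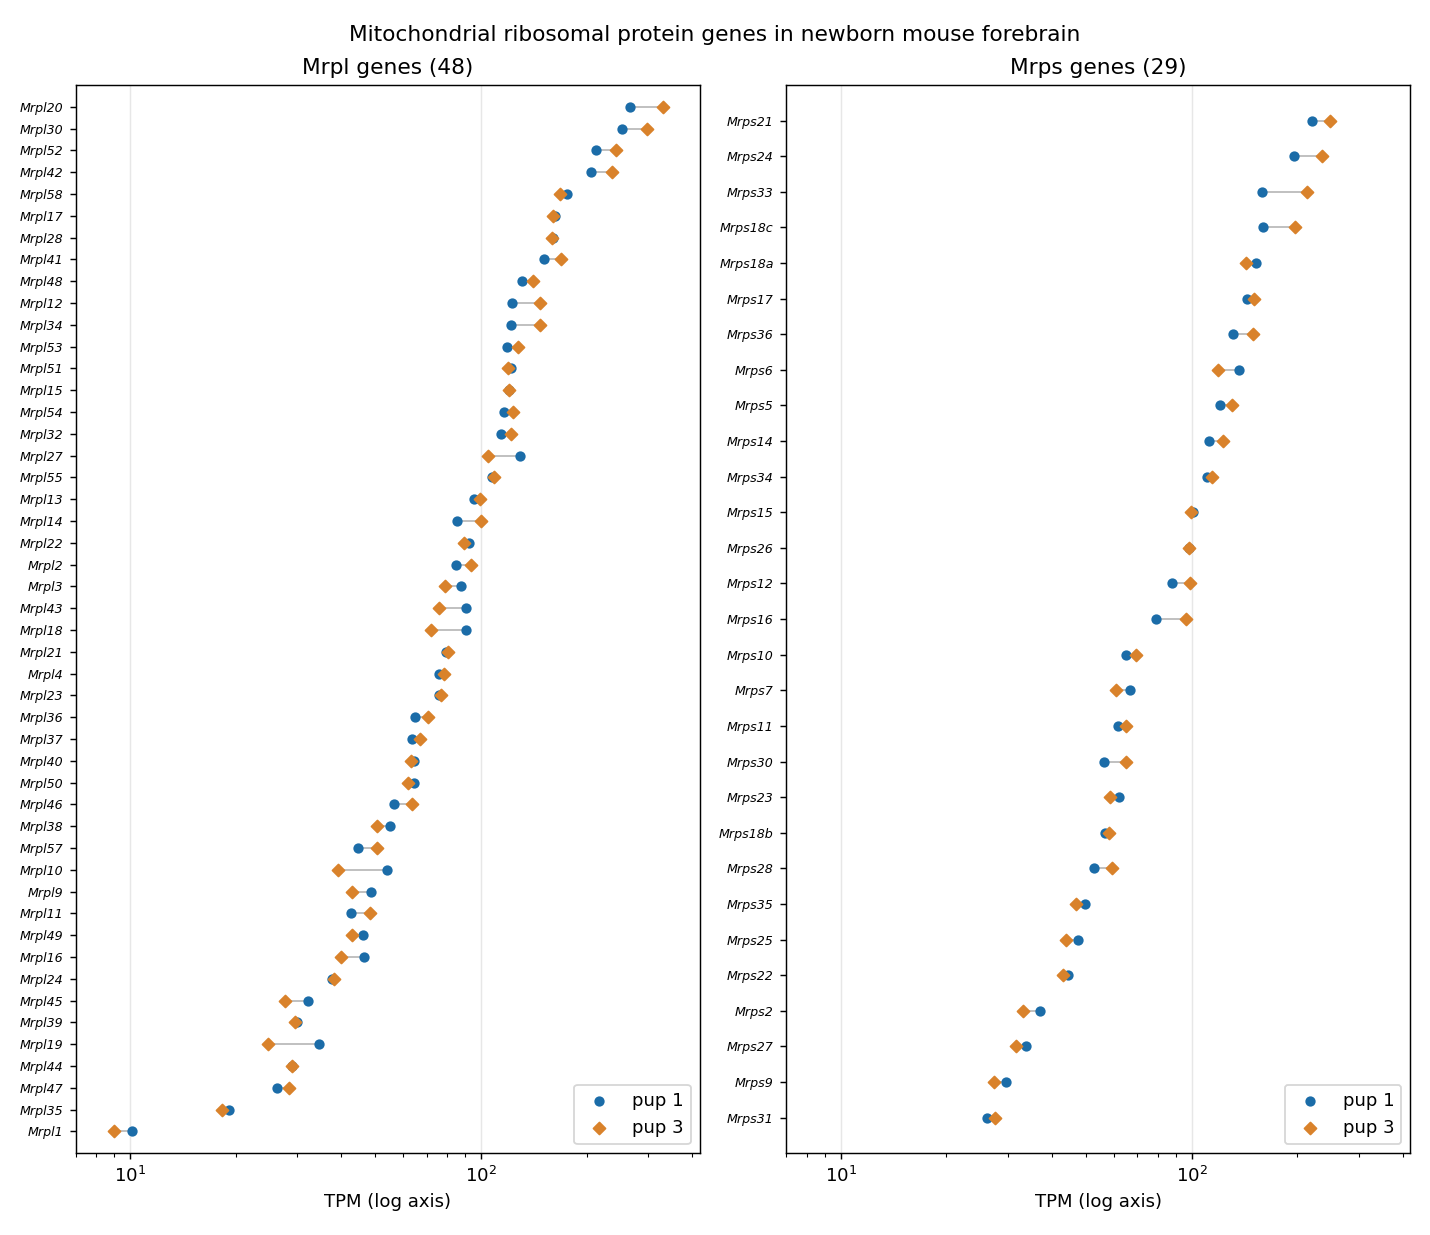
TPM of each of the 48 Mrpl and 29 Mrps genes on a log axis, in pup 1 (blue circles) and pup 3 (orange diamonds), joined by a line and ordered by their mean. Mrpl20 is at the top with 265 and 330 TPM, and Mrpl1 at the bottom with 10.1 and 9.01 TPM.

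By subunit, the Mrpl genes had a median of 85.1 TPM in pup 1 and 78.7 TPM in pup 3, and the Mrps genes 79.3 and 96.6 TPM. The ratio of the medians, Mrpl over Mrps, was 1.07 in pup 1 and 0.815 in pup 3 (log2 -0.10 ± 0.28, SD, n = 2), so the subunits did not differ beyond the spread between the pups. Symbols do not always give a protein's place. Mrps18a and Mrps30 sit in the large subunit, and Mrps36 is now known as a component of the alpha-ketoglutarate dehydrogenase complex. With genes placed by the particle and Mrps36 left out, the log2 ratio turned to 0.07. Mrps36 itself had 131 and 150 TPM, and Mrps30 had 56.3 and 64.9 TPM.

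The genes were then grouped by the protein's role, and the ends of each group are given by mean TPM. Among large-subunit proteins with a bacterial homologue (29 genes) the median was 83.5 TPM, from Mrpl1 to Mrpl20. Among those specific to mitochondria (21 genes) it was 65.2 TPM, from Mrpl44, a relative of RNase III, to Mrpl52. In the small subunit the 16 proteins with a bacterial homologue had a median of 96.8 TPM, from Mrps9 to Mrps21. The 10 specific to mitochondria had 52.7 TPM, from Mrps31 to Mrps33. In both subunits the bacterial class had the higher median, and its median transcript length was also shorter, 998 nt against 1110 nt in the large and 887 nt against 1217 nt in the small subunit. Without division by length the order turned in the large subunit, with a median of 48.7 CPM in the bacterial class and 57.3 CPM in the other, whereas in the small subunit it was 52.7 and 40.3 CPM (CPM is the expected count scaled to the library's total).

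The stalk of the large subunit, which recruits translation factors, is formed by 5 listed proteins with a median of 120 TPM. Mrpl12, present in several copies per bacterial-type ribosome, had 122 TPM in pup 1 and 148 TPM in pup 3. Mrpl10, which anchors Mrpl12, had 53.8 and 39.1 TPM, and Mrpl11, at the base of the stalk, had 42.7 and 48.3 TPM. Mrpl12 was thus higher than both in each pup, 2.28-fold and 3.78-fold over Mrpl10 and 2.87-fold and 3.05-fold over Mrpl11. The mean transcript length was 1240 nt for Mrpl12, against 1708 nt for Mrpl10 and 2882 nt for Mrpl11. In counts not divided by length, Mrpl12 was 1.59-fold and 2.72-fold over Mrpl10 and 1.16-fold and 1.27-fold over Mrpl11. Mrpl53 (118 and 127 TPM) and Mrpl54 (116 and 123 TPM), both specific to mitochondria, lay just below Mrpl12 in pup 1 and further below in pup 3.

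The central protuberance, where the subunits and the tRNAs meet, had a median of 94.6 TPM over 10 genes, from Mrpl38 (55.1 and 50.4 TPM) to Mrpl52. The tunnel exit, where the new peptide reaches the membrane, had the lowest median of the role groups, 33.9 TPM over 8 genes. It ran from Mrpl47 to Mrpl17, and included Mrpl45 (32.2 and 27.7 TPM), Mrpl44, Mrpl39 and Mrpl24 (37.7 and 38.02 TPM). The 3 listed genes of the decoding region were Mrps24, Mrps5 (120 and 130 TPM) and Mrps12 (88.0 and 99.0 TPM), with a median of 125 TPM. Mrps12 is the homologue of the bacterial protein in which streptomycin resistance arises. The 15 genes whose human counterparts are linked to inherited disease had a median of 60.2 TPM, from Mrpl44 to Mrpl12, and included Mrps22 (44.4 and 43.0 TPM), Mrps16 (79.3 and 96.6 TPM) and Mrps34 (111 and 114 TPM).

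A trio of paralogs shares the Mrps18 name. Mrps18c had 160 TPM in pup 1 and 197 TPM in pup 3, Mrps18a 153 and 142 TPM, and Mrps18b 56.7 and 57.9 TPM. Mrps18b was the lowest in both pups, with Mrps18c over Mrps18b at 2.82-fold and 3.39-fold and Mrps18a over Mrps18b at 2.69-fold and 2.46-fold. In counts not divided by length, Mrps18c over Mrps18b was 1.63-fold and 1.90-fold and Mrps18a over Mrps18b 2.32-fold and 2.06-fold. Mrps18c over Mrps18a was 1.05-fold and 1.38-fold in TPM, and 0.702-fold and 0.923-fold in counts not divided by length.

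The spread of levels among the members went with transcript length. Across the 77 genes, the mean TPM fell with length at a Spearman rho of -0.79 (-0.31 across 13373 protein-coding genes of 1 TPM or more). In CPM, which is not divided by length, rho was -0.09. The highest member was 31.1-fold above the lowest in TPM and 7.02-fold in CPM, and the SD of the log2 level was 0.97 in TPM and 0.58 in CPM. Cytosolic ribosomal protein genes did not narrow in that way (SD 0.94 in TPM and 0.93 in CPM). Mrpl20 led on both scales (98.6 CPM in pup 1 and 140 CPM in pup 3) and Mrpl1 was lowest on both (17.1 and 17.0 CPM). Mrpl52, with a transcript of 412 nt, was 4th in TPM but near the median in CPM (41.4 and 52.8 CPM). Mrpl35, at 3715 nt the longest, was next to lowest in TPM and also near the median in CPM (43.1 and 46.1 CPM). TPM shares length in its denominator for every gene, and the part of that division in the relation was not tested. The relation is given as a description only.

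**Figure D3:**
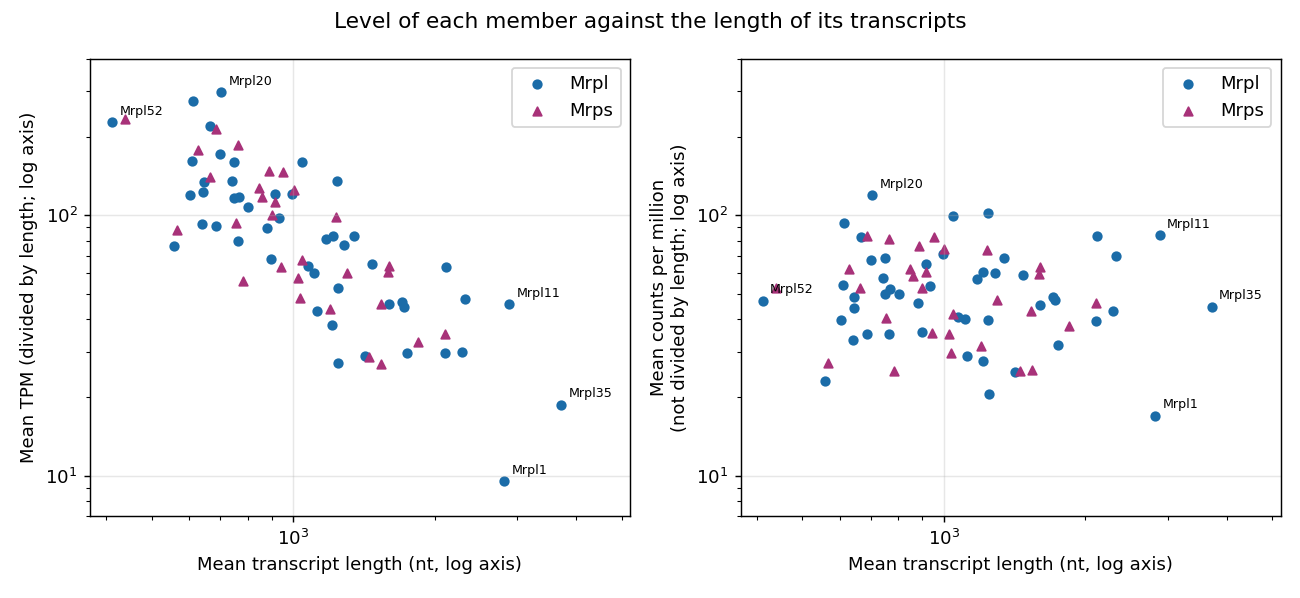
Mean level of each member against its mean transcript length (nt), both on log axes, in TPM (left) and in CPM, not divided by length (right), with Mrpl genes as blue circles and Mrps genes as purple triangles. In TPM the points fall with length (rho -0.79), and in CPM they do not (rho -0.09).

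The other genes of mitochondrial translation were set beside the members. The 5 mitoribosome proteins with other symbols had a median of 114 TPM, led by Chchd1 (191 TPM in pup 1 and 250 TPM in pup 3) and Aurkaip1 (129 and 153 TPM) of the small subunit. Dap3, a GTP-binding protein of the small subunit, had 111 and 117 TPM, and Gadd45gip1 of the large subunit was the lowest with 31.9 and 34.0 TPM. All 24 listed assembly factors reached 1 TPM in both pups, with a median of 22.6 TPM in pup 1 and 20.4 TPM in pup 3. Rbfa, which matures the small subunit, had 66.4 and 73.7 TPM, and Malsu1, which keeps the large subunit from joining early, 62.4 and 70.9 TPM. Tfb1m, which methylates the small ribosomal RNA, was the lowest by the mean with 6.44 and 5.13 TPM.

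The 12 translation factors had a median of 15.8 TPM. Tufm, the elongation factor that delivers tRNA, led with 83.0 TPM in pup 1 and 74.95 TPM in pup 3, Tsfm, its exchange factor, had 45.6 and 38.2 TPM, and the release factor Mtrf1l was lowest with 5.72 and 5.49 TPM. The 17 mitochondrial tRNA synthetases had a median of 13.8 TPM. Lars2, for leucine, was listed far above the rest with 733 and 769 TPM, followed by Rars2, for arginine, with 42.2 and 35.2 TPM. Which reads gave the value of Lars2 was not examined, so it is not read as the level of the synthetase messenger. Mars2, for methionine, was the lowest by the mean with 2.20 and 1.94 TPM. The 10 genes of mitochondrial DNA expression and maintenance had a median of 22.7 TPM and ran by mean TPM from the helicase Twnk (8.67 and 6.76 TPM) to Tfb2m (39.7 and 39.4 TPM) and Slirp (180 and 217 TPM), which binds mitochondrial messengers. The members' median was above that of the assembly factors, the translation factors, the synthetases and the mitochondrial DNA genes in both pups, and below that of the 5 mitoribosome proteins with other symbols (111 and 117 TPM).

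The 10 transcription regulators of nuclear mitochondrial genes had a median of 10.3 TPM. Mycn (53.3 TPM in pup 1 and 66.5 TPM in pup 3) and Myc (45.7 and 50.7 TPM) were the highest, and the coactivator Ppargc1b was the lowest with 2.61 and 1.26 TPM. The factors whose letters were searched had 20.6 and 17.2 TPM (Nrf1), 9.06 and 6.48 TPM (Gabpa), 26.2 and 19.8 TPM (Gabpb1) and 12.4 and 10.1 TPM (Yy1).

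The members lay well below the protein genes of the cytosolic ribosome. Their medians of 84.7 TPM in pup 1 and 79.2 TPM in pup 3 stood against 472 and 558 TPM for 76 cytosolic genes, and the ratio was 0.179 in pup 1 and 0.142 in pup 3 (log2 -2.65 ± 0.24, SD, n = 2). Without division by length it was 0.263 and 0.222. Against 84 nuclear genes of oxidative phosphorylation, most of whose complexes also hold products of the mitochondrial ribosome, the ratio of medians was 0.217 and 0.175. Both differences exceeded the spread between the pups. The highest member, Mrpl20, was below the median of either set in both pups.

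**Figure D4:**
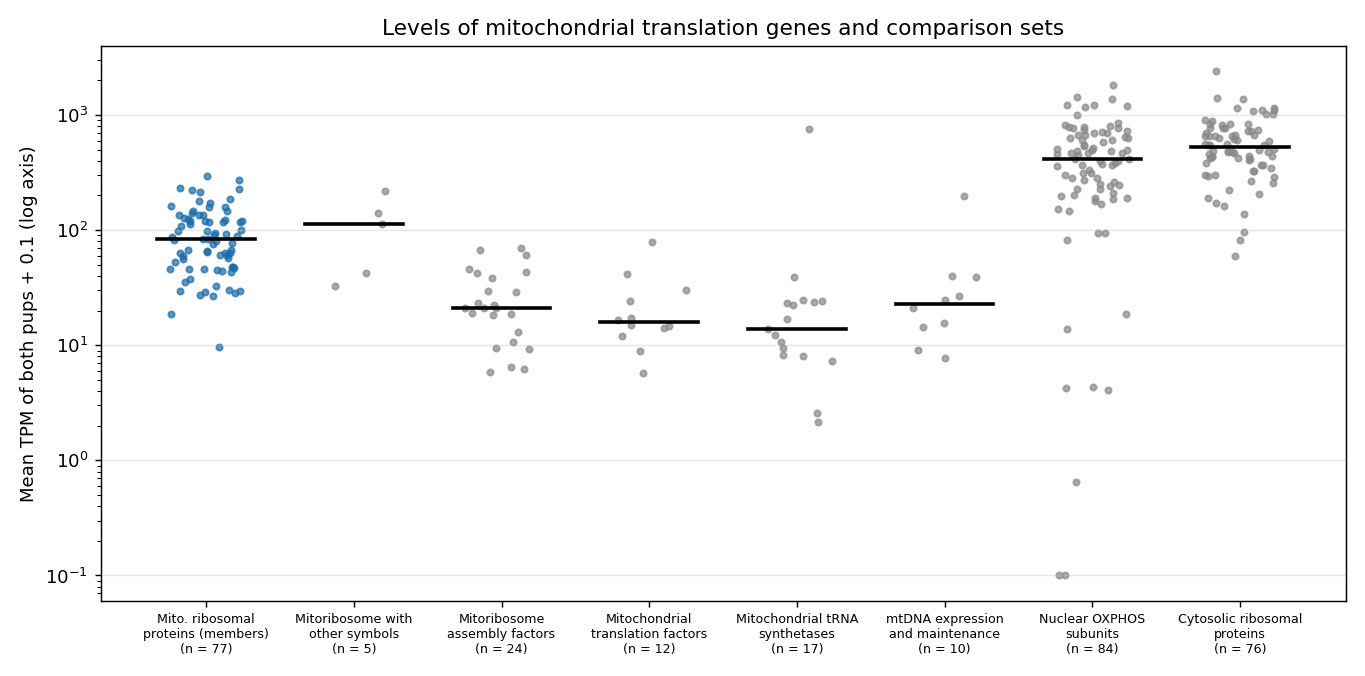
Mean TPM + 0.1 of both pups on a log axis for each gene (points) of the members (blue) and of 7 comparison sets (grey), with the set's median as a black bar; sideways spread of points only separates them. The members' median is 83.4 TPM, between translation factors at 15.8 TPM and cytosolic ribosomal proteins at 526 TPM.

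Between the pups the members kept nearly the same order (Spearman rho 0.98 across the 77 genes). Ratios are given as log2 of pup 1 over pup 3 after adding 0.1 to TPM, an offset that shrinks the ratios of low genes. The members' median was -0.02, with quartiles of -0.16 and 0.08, whereas the median over 13373 protein-coding genes of 1 TPM or more was 0.27. In TPM, 33 of 77 members were higher in pup 1, against 82.5% of protein-coding genes, and 44 were higher in pup 3, against 17.5%. After TMM scaling of the counts, which moved the median of all genes from 0.27 to 0.00, the members' median was -0.31, and 4 members were higher in pup 1 (49.7% of genes) and 73 in pup 3 (50.3%). The direction of a single member therefore depends on the scaling. The gap of the members to all genes was -0.29 in TPM and -0.30 with TMM. A scaling factor shifts all genes of a library alike, so the likeness of these 2 gaps is no separate support. In bulk tissue, a change in cell composition and a change in RNA per cell cannot be told apart.

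By the deposited TPM intervals, for which no confidence level is stated in the labels or headers, 9 members lay higher in pup 1 with intervals apart (51.7% of protein-coding genes) and 21 higher in pup 3 (5.8%). None differed by 2-fold, in either direction (3.63% higher in pup 1 and 0.0823% higher in pup 3 over all genes), or by 1.5-fold (17.1% and 0.329%). The ratios toward pup 1 were led by Mrpl19 (34.6 TPM in pup 1 and 24.8 TPM in pup 3, log2 0.48), Mrpl10 (53.8 and 39.1 TPM, 0.46), Mrpl18 (90.5 and 71.9 TPM, 0.33), Mrpl27 (129 and 105 TPM, 0.30) and Mrpl43 (90.9 and 75.9 TPM, 0.26). All but Mrpl43 stayed higher in pup 1 after TMM scaling. Those toward pup 3 were led by Mrps33 (159 and 212 TPM, -0.42), Mrpl20 (-0.32), Mrps18c (-0.30), Mrps16 (79.3 and 96.6 TPM, -0.28) and Mrpl34 (122 and 147 TPM, -0.28). Mrpl10 and its partner Mrpl12 (log2 -0.27) went apart in the pups.

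Transcript length moved with the ratio between the pups as well, at a rho of 0.52 across the members and 0.49 across protein-coding genes. Among transcripts under 750 nt, the median log2 ratio was -0.19 for 19 members and -0.16 for protein-coding genes. From 750 to 1000 nt it was -0.06 and -0.03, from 1000 to 1500 nt 0.00 and 0.07, and from 1500 to 4000 nt 0.10 (17 members) and 0.28. Members had a median length of 1012 nt, against 2517 nt over protein-coding genes. Within a length class the members stood 0.07 below the class median, against 0.29 below all genes. In TPM, cytosolic ribosomal proteins (median 683 nt) were higher in pup 3 in 76 of 76 genes and oxidative phosphorylation genes (662 nt) in 68 of 84, against 17.5% of protein-coding genes. Higher in pup 1 were 12 of 12 translation factors (1776 nt) and 15 of 17 synthetases (2308 nt), against 82.5% of protein-coding genes. So were 17 of 24 assembly factors (1575 nt) and 7 of 10 mitochondrial DNA genes (1811 nt). The part of length, and of the markers that differed between the pups, was not tested.

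**Figure D5:**
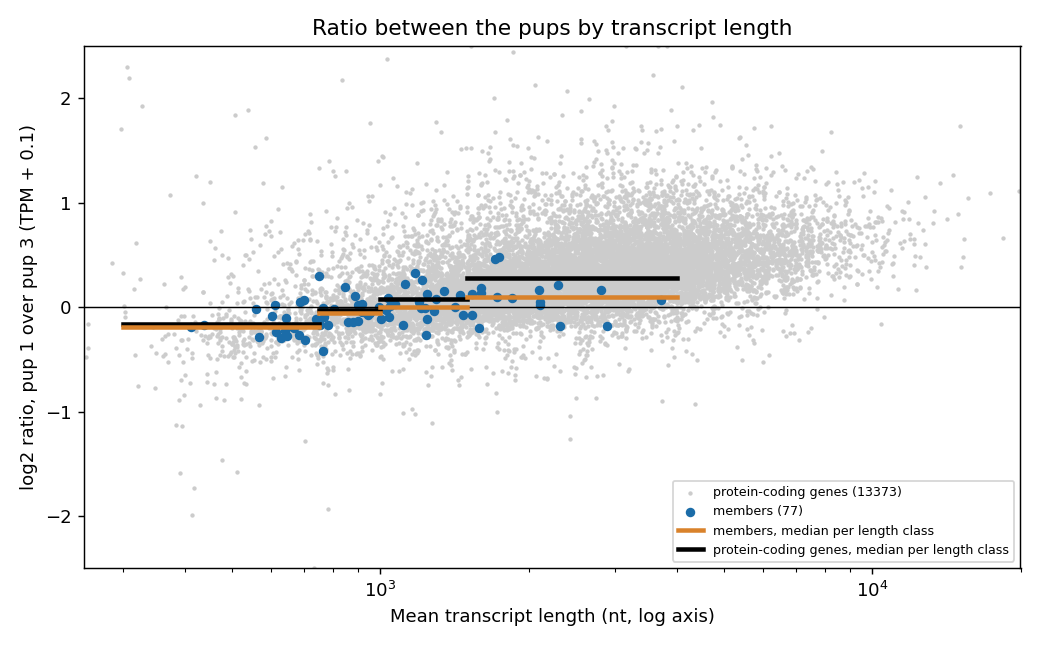
Log2 ratio of TPM + 0.1, pup 1 over pup 3, against mean transcript length (nt, log axis) for 77 members (blue) and 13373 protein-coding genes (grey; values beyond 2.5 are drawn at the edge). Bars give the median of each length class for members (orange) and protein-coding genes (black), which lie at -0.19 and -0.16 under 750 nt and at 0.10 and 0.28 from 1500 to 4000 nt.

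The gene-wise biological coefficient of variation, the relative spread between the pups that counting does not account for, had a median of 0.147 over the members and 0.157 over 13346 protein-coding genes. It was 0.146 over genes within the members' range of levels. With 2 libraries such values are drawn strongly toward a common trend, so they say little of a single gene.

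Transcripts were then compared by the deposited share of each in its gene's TPM. A set of 19 members had 1 annotated transcript and 58 had 2 or more, up to 11 in Mrps10. The leading transcript was the same in both pups in 75 of 77 members, and it held 90% or more in both in 37. Those 37 include the 19 with 1 transcript, which hold 100% by construction, and 18 of the 58. The share over all protein-coding genes is not given here. Among the 58, the leading transcript differed between the pups in 2 (9.16% of protein-coding genes with 2 or more transcripts). In Mrps33 the transcript Mrps33-201 held 50.6% in pup 1 and 37.98% in pup 3, and Mrps33-202 49.4% and 53.8%. In Mrps5, Mrps5-207 held 29.5% and 26.0%, and a transcript annotated as a retained intron 26.3% and 28.0%. The gap between the pups in the leading share was at most 14.3 points, in Mrpl45 (85.7% in pup 1 and 100% in pup 3).

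The leading transcript held under 50% on average in 7 of 58 members (21.6% of protein-coding genes). They were Mrpl24 (49.97% and 48.01%), Mrpl30 (45.1% and 49.6%), Mrpl48 (38.2% and 39.8%), Mrpl51 (45.1% and 47.9%), Mrpl55 (36.9% and 40.4%), Mrps5 and Mrps10 (44.5% and 48.01%). Transcript classes were taken from GENCODE M21, whereas the deposited notes name M4, and a transcript that was not quantified could not lead. In 12 of 58 members the leading transcript was not annotated as protein-coding (9.59%). With Mrpl32, whose 1 transcript in the tables is annotated for nonsense-mediated decay, these made 13, of which 5 carry that annotation, 5 that of a processed transcript and 3 that of a retained intron. Mrps26-201, a retained intron, held 94.5% in both pups. Mrps14-201, annotated for nonsense-mediated decay, held 88.8% in pup 1 and 91.2% in pup 3, and Mrpl3-204, of the same class, 63.6% and 68.8%. In Mrpl23 a processed transcript held 83.2% and 82.6%, in Mrpl47 73.95% and 73.7%, in Mrpl19 52.7% and 56.1%, in Mrpl15 51.4% and 52.0%, and one led in Mrpl51 as well. Mrps24-201, a retained intron, held 66.4% and 71.7%, and Mrps25-201 65.1% and 70.4%. Transcripts annotated for decay also led in Mrpl13 (58.1% and 61.4%) and Mrpl48.

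These shares weigh short transcripts more than long ones. The share of expected counts was compared after the data had been seen. By it, all 77 members led with 1 and the same transcript in the pups, and 9 led with one that is not protein-coding. In the 19 members with 1 transcript, Mrpl32 among them, the leader was fixed. The share over all protein-coding genes by this measure is not given here, so these counts are not read as particular to the members. By counts, another transcript than in TPM led in 6 members, Mrps5, Mrps25, Mrps33, Mrpl13, Mrpl19 and Mrpl47. In each it was a longer, protein-coding one. Mrpl19-201, of 5000 nt, took 82.5% of that gene's counts in pup 1 and 82.6% in pup 3. In Mrps25, the retained intron Mrps25-201 has 565 nt and the coding leader by counts 6073 nt, and that longer one took 71.8% and 73.1% of counts. For Mrps24, Mrps26, Mrps14, Mrpl3, Mrpl15, Mrpl23, Mrpl32, Mrpl48 and Mrpl51 the noncoding leader held on both measures, in Mrpl32 by construction.

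Processed pseudogenes named for the members were looked up as well. Mrpl23 had 75.9 TPM in pup 1 and 76.8 TPM in pup 3, and its processed pseudogene Mrpl23-ps1, on chromosome 2, was listed higher, at 99.5 and 132 TPM. The deposited interval of Mrpl23 spanned 49.4% and 46.2% of its posterior mean, the widest of all members. How reads were divided between gene and copy was not tested, and the level of Mrpl23 is uncertain to that extent. Mrpl19 (25.4% and 28.1%), Mrpl47 (23.9% and 21.7%) and Mrpl2 (22.1% and 19.3%) had the next widest intervals in both pups. The copies Mrps36-ps1, Mrps36-ps2 and Mrpl48-ps stayed at or below 2.33 TPM in both pups, and Mrps36-ps3 was listed at 0.

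The members lie on 17 chromosomes, with 11 on chromosome 11 and 8 on chromosome 17, and none on X. A protein-coding gene starts on the opposite strand within 1000 bp of the start in 33 of 77 members, against 10.9% of all protein-coding genes and 15.4% of those of 1 TPM or more. The partner reached 1 TPM in both pups in 31 of 33 pairs. The member was the higher of the pair in both pups in 23 and the lower in 9, while Mrpl14 and its partner Tmem63b changed places (85.6 and 99.99 TPM, against 113 and 90.6 TPM). The partners' median was 13.7 TPM.

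Mrps11 and Mrpl46, one from each subunit, are each other's partner on chromosome 7 and so count under both. Mrps11 had 61.7 TPM in pup 1 and 64.9 TPM in pup 3, and Mrpl46 56.6 and 63.6 TPM, a ratio of 1.09 and 1.02. Mrps12 (88.0 and 99.0 TPM) faces Sars2, the mitochondrial seryl-tRNA synthetase (13.1 and 11.2 TPM), and was 6.72-fold and 8.81-fold higher in TPM, and 2.44-fold and 3.18-fold higher in counts not divided by length. Mrpl43 faces Twnk (8.67 and 6.76 TPM). Mrpl36 and Mrpl47 face subunits of complex I, Ndufs6 (366 and 462 TPM) and Ndufb5 (292 and 336 TPM), which were higher than the member in both pups. Mrpl49 had 46.0 and 43.0 TPM, against 423 and 524 TPM for its partner Fau, whose product includes a cytosolic ribosomal protein. Mrpl30 faces Mitd1 (7.05 and 7.91 TPM) at a distance of 66 bp and Mrps18c faces Helq (7.20 and 5.06 TPM) at 29 bp, and in both pairs the member was far the higher. In all, 40 members overlap another annotated gene, 34 of them one on the opposite strand. The share over all protein-coding genes is not given here, so these overlaps are not read as particular to the members. Neither labels nor headers state whether reads were counted by strand, so reads in such overlaps cannot be assigned with certainty.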

How the data were processed

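Total RNA from 2 forebrains was measured in 1 library each, which form 1 group. The labels name a mirVana extraction and added spike-ins. The deposited notes name mm10 and GENCODE M4, and no aligner, quantifier, version or strandedness is given in the sources used here. In the gene and transcript tables, the authors deposited expected counts, which need not be whole, and TPM. They also hold posterior mean TPM with interval bounds, read here as a deposited signal of unstated interval level, and the deposited percent of a gene's TPM that each transcript takes. The depths given in the report limit precision; intervals cover less than the variation between animals.

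Symbols, positions and the names and classes of transcripts came from GENCODE M21, with genes matched by identifier without version (42462 of 43346 genes). Members, lists and named genes were chosen with earlier results of these data known. Levels are means over both pups, and medians are taken over all members. The named genes were the 10 highest and 8 lowest members, the extremes of each role group and pathway list, the Mrps18 paralogs, the stalk genes, Mrps30, Mrps36 and Mrpl58, the 5 largest ratios each way, and members with an unusual leading transcript. Mrps22, Mrps34, Mrpl53, Mrpl54, Mrpl2, Dap3, Neurod6, Emx2, the factors whose letters were searched and the divergent pairs were added after their values were seen, as were the Mrps26 and Mrps12 promoters. Variation was estimated with edgeR 4.0.16 in R 4.3.3 (TMM, filterByExpr with a minimum count of 10, 16815 genes) on expected counts rounded to whole numbers, and checked on simulated data. DESeq2 1.42.0 size factors were an alternative. Tables and plots were made in Python 3.11.15 with pandas 2.3.3, numpy 2.4.6 and matplotlib 3.10.9. No test between groups was made.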

Additional observations from a re-analysis of the deposited data

How the results depend on the processing

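The count of detected members was 77 at 0.5, 1 and 5 TPM. In TPM no member differed between the pups at 2-fold or 1.5-fold. At 2-fold none did with TMM scaling or with no filter on the mean. With TMM scaling, Mrpl20 (log2 -0.63) and Mrpl12 (-0.59) passed 1.5-fold toward pup 3 with intervals apart. These calls pair a ratio of TMM-scaled counts with intervals of unscaled TPM. Their share over all protein-coding genes is not given here, so they are not read as particular to the members. Of 275 comparisons of a result with an alternative, 23 moved. A move was a shift beyond the spread between the pups or beyond 1.5 times. For the median ratio between the pups it was a shift above 0.10 in log2. In 14 of 231 comparisons of single members, all with posterior mean TPM, the level moved by more than a very small gap between the pups. Leaving out 1 of 2 pups always shifts a member's mean by less than the SD, so those comparisons could not move. Only the 77 comparisons with posterior mean TPM could. The same limit holds for the ratios of medians with 1 pup left out, which are among the 275. Alternatives limited to members of 1 TPM or more could not move either, because all 77 passed. The members' median of 83.4 TPM became 100.1 TPM when rescaled within nuclear protein-coding genes and 48.7 in library-scaled counts (CPM) without division by length, and leaving out 1 pup gave 79.2 to 84.7 TPM. Of the 10 highest members, 5 were shared with the 10 highest by library-scaled counts. The log2 ratio to cytosolic ribosomal proteins was -2.05 without division by length and -2.82 to -2.48 with 1 pup left out. The median log2 ratio between the pups was -0.31 with TMM, -0.33 with TMM and no filter on low counts and -0.32 with DESeq2 size factors, against -0.02 in TPM; these scalings also moved the median of all genes. The log2 ratio of Mrpl over Mrps medians was -0.30 to 0.10 with 1 pup left out. The YY1 letters were in 4 promoters with only the bases before the start, against 12 in the whole window. Other causes of these moves were not tested. No paired analysis was possible because both libraries belong to 1 group. Each member had 685 or more counts per library, and 2 animals limit precision. Deposited intervals of 47 of 77 members overlapped between the pups. Over 13373 protein-coding genes, intervals lay apart in 51.7% with the higher value in pup 1 and in 5.8% with it in pup 3.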

Other observations

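The RNAs of the mitochondrial genome include the particle's own ribosomal RNAs and the messengers it translates. The large ribosomal RNA mt-Rnr2 had 6080 TPM in pup 1 and 7826 TPM in pup 3, and the small one, mt-Rnr1, 1897 and 2116 TPM, a ratio of 3.21 and 3.70 within a pup. Both mitochondrial ribosomal RNAs were higher in pup 3 (log2 -0.36 and -0.16), and of the 13 protein-coding genes of the mitochondrial genome 12 were higher in pup 3, with a median of 2109 TPM in pup 1 and 3211 TPM in pup 3. The exception, mt-Nd4l, a subunit of complex I, was the lowest of the 13 with 95.3 TPM in pup 1 and 29.2 TPM in pup 3. How ribosomal RNA was handled in preparing the libraries was not analysed here, so no ratio of it to the protein messengers is given.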
